A study of Mus musculus with 7 samples.

Results

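The genes described here are 10 immediate early genes of the mouse endometrial epithelium: the Fos family (Fos, Fosb, Fosl1, Fosl2), the Jun family (Jun, Junb, Jund), Atf3, Egr1 and Ier3. They were taken by symbol from a list of genes that also respond to tissue dissociation, and make up 10 of the 53379 gene IDs in the count tables. Each of the 10 passed the filter on low counts and stood among the 14610 genes tested. Immediate early genes are transcribed within minutes of a stimulus without new protein synthesis, from promoters that carry serum response and cyclic AMP response elements. Fos and Jun proteins pair through leucine zippers to form the transcription factor AP-1, which binds the sequence TGANTCA, and the composition of the pair sets how strongly it activates. In epithelia AP-1 responds to growth factors, wounding and stress, and enzymatic digestion of a tissue induces these genes by itself.

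RNA was sequenced from uterine cells that had been minced, enzymatically digested and purified on magnetic beads through EpCAM, an epithelial surface protein. Each of the 4 mutant libraries was made from a single CD-1 mouse, 120 days old, with the genotype LtfCre 0/+; Brg1 fl/fl, in which Cre recombinase, driven by the lactoferrin gene Ltf, deletes Brg1, the motor subunit of SWI/SNF chromatin remodellers. The 3 Control libraries were each made from pooled wild-type CD-1 mice, with no Cre or floxed allele named in the labels, and were reanalysed from an earlier study, where the labels place them on a first flow cell. The sources used here give neither the age of the control mice nor the time from dissection to lysis. Because the mutants and the controls come from different sets of libraries, the genotype cannot be told apart from the library set or from the pooling of mice. In bulk RNA, fewer cells that express a gene and less RNA of that gene per cell cannot be told apart.

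Reads counted in genes ran from 12436971 to 13364080 in mutants and from 21372036 to 25862245 in controls, and 3 reads, the floor used here, stood for 0.183 to 0.235 and 0.136 to 0.159 counts per 1000000 reads (CPM, scaled by TMM). The targeted gene Smarca4, which encodes Brg1, was at 87.6, 56.7, 86.9 and 105.4 CPM in mutants and 263, 245 and 279 CPM in controls (log2 fold change −1.64 ± 0.23 SE, edgeR adjusted p = 0.00967), and reads outside the floxed part still count for it. The controls resembled each other more than the mutants did, with correlations of log2 CPM across genes of 0.980 to 0.986 within controls, 0.831 to 0.968 within mutants and 0.869 to 0.907 between groups; genes are not independent replicates. Mutant replicate 1 stood apart, being closer to Control replicate 2 (0.907) than to any other mutant (0.831 to 0.900). The 10 epithelial markers were detected in every library, summing to 8503 to 11920 CPM in mutants against 17309 to 21536 CPM in controls.

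The RefSeq promoter table (GRCm38.p6) held 8 of the 10 genes, and Fosl1 and Egr1 were not matched. Fosb and Junb, which differed between genotypes in opposite directions, both hold the core of the cyclic AMP response element, and its part in their levels was not tested. The 250 bases before the start are printed below for the 4 genes whose promoter window held this core. They lie at chr12:85473640-85473889 on the plus strand (Fos), and on the minus strand at chr7:19310046-19310295 (Fosb), chr8:84978749-84978998 (Junb) and chr1:191183334-191183583 (Atf3). Each is written 5′ to 3′ in the direction of transcription, and positions are counted from the RefSeq start. That start equals the one of the count annotation (GENCODE) for Fos and lies 6 bases downstream of it for Fosb and 30 bases upstream for Junb. For Atf3 it lies 34706 bases downstream of the GENCODE start, inside the gene. Capitals mark the core TGACG, or its complement where the core lies on the other strand (Atf3), and the TATA box TATAAA.
Fos: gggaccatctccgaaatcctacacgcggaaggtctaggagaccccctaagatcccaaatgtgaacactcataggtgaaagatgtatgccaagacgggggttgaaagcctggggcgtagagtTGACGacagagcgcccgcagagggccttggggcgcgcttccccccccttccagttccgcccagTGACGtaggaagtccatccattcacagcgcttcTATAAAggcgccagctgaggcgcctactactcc
Fosb: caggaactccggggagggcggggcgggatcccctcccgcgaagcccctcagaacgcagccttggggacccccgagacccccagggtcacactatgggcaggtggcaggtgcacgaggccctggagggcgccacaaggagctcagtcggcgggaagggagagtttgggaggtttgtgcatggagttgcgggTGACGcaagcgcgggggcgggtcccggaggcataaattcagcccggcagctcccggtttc
Junb: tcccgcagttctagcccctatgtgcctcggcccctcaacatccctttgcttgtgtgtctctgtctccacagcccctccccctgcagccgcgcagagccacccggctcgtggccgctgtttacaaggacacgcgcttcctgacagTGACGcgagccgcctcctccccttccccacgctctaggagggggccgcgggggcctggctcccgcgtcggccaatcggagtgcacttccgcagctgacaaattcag
Atf3: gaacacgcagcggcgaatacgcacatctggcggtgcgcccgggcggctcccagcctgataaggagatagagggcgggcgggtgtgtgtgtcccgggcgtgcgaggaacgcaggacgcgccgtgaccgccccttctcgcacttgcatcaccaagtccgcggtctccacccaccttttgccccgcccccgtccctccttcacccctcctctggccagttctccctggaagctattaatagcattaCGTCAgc

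The core TGACG lay 129 and 66 bases before the RefSeq start of Fos, 60 bases before that of Fosb, 106 before that of Junb and, on the opposite strand, 7 before that of Atf3. A TATA box lay 33 bases before the start of Fos. One in Junb begins at base 1, the RefSeq start itself, outside the printed stretch and 30 bases upstream of the GENCODE start. Both strands of the window from 250 bases before to 50 bases after the start were searched. Over all 32851 promoters of the table off chromosome 18, 20.8% held the core and 13.6% the TATA box, against 4 and 2 of the 8 matched genes. The full element TGACGTCA, which contains the core, was in 1.79% of all promoters, the AP-1 site TGANTCA, which the full element does not match, in 7.81%, and the serum response element in 1.63%, and these windows of the 8 genes held 0 of the 3. A match is a description of the letters, not a bound site. Bases further than 250 before the start were not searched, so no match in a window does not mean that the gene lacks the element.

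The comparison asks how the transcripts of these genes differ when Brg1 is deleted in the epithelium. Of the 10 genes, Fosb was higher in mutants, Fosl1, Junb and Ier3 were lower, and 6 did not pass the test (quasi-likelihood test of edgeR, p adjusted after Benjamini and Hochberg over all genes tested, threshold 0.05). Among all tested genes 11.5% passed, 5.37% higher and 6.18% lower. The median log2 fold change was −0.64 over the 10 genes and 0.06 over all tested genes. It was −0.31 and 0.41 with total count scaling, and −0.32 and 0.09 with offsets for GC content and length. The CPM ranges of the groups did not overlap for 5 of the 10 genes (the 4 that passed and Jund), against 31.5% of all tested genes. Each of the 4 calls was lost whenever a control library was left out, a removal that also took the calls over all genes from 1687 to between 133 and 169. Without mutant replicate 1 the 4 calls held and Jun and Jund were lower as well, 1 gene higher and 5 lower of the 10 against 4403 called of all (29.5%).

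**Figure D1:**
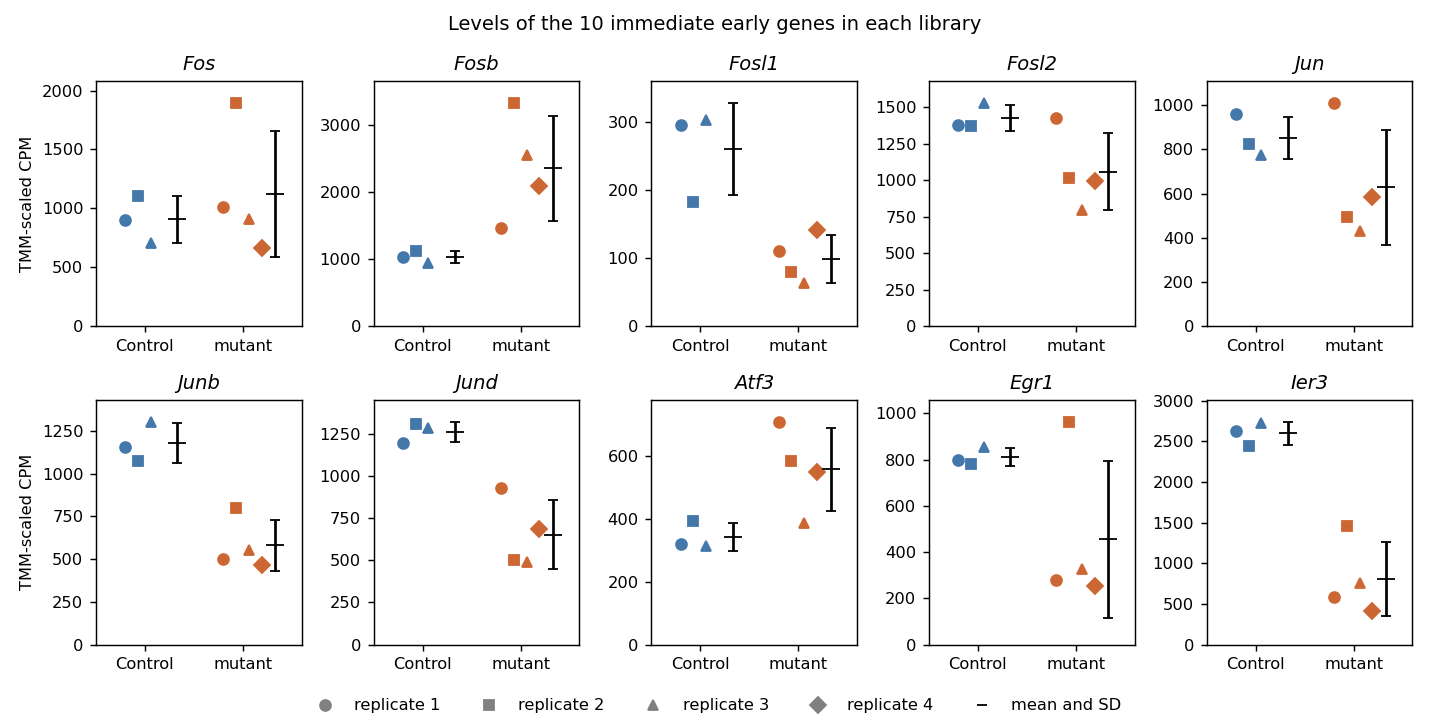
Level of each of the 10 genes in TMM-scaled CPM on a linear axis from 0, one panel a gene, with 1 point a library (the shape gives the replicate) and, beside the points, the mean and SD of the group. Every mutant lies above the controls for Fosb and below them for Fosl1, Junb, Jund and Ier3, and mutant replicate 2 (square) is the highest mutant for Fos, Fosb, Junb, Egr1 and Ier3.

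Fos, the classical AP-1 partner of Jun, is on chromosome 12 from 85473890 to 85477273 (GRCm38). It was at 1008, 1892, 911 and 663 CPM in mutant replicates 1 to 4 and at 904, 1108 and 703 CPM in Control replicates 1 to 3. Mutant replicate 2 was the highest library, mutant replicate 4 the lowest, and the groups overlapped. The log2 fold change was 0.31 ± 0.38 SE (edgeR adjusted p = 0.619), and it was −0.064 without mutant replicate 2.

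Fosb, whose protein pairs with Jun like Fos and whose short splice form ΔFosB is a long-lived variant, is on chromosome 7 from 19302696 to 19310051. It was at 1468, 3329, 2551 and 2088 CPM in mutants and at 1034, 1127 and 945 CPM in controls. Every mutant was above every control. Fosb rose 2.28-fold (log2 fold change 1.19 ± 0.31 SE, edgeR adjusted p = 0.0494), the one gene of the 10 that passed in this direction. The adjusted p lay close to the threshold, and leaving out mutant replicate 2, 3 or 4 ended the call at adjusted p = 0.0780, 0.108 and 0.0787. The call of Fosb also ended without the filter on low counts (log2 fold change 1.16). The counts do not separate splice forms.

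Fosl1 encodes Fra-1, which lacks the transactivation domain of Fos, and is on chromosome 19 from 5447547 to 5455946. It was at 110, 79.1, 62.7 and 141 CPM in mutants and at 295, 182 and 303 CPM in controls. The highest mutant, replicate 4, was below the lowest control, replicate 2. Fosl1 fell 2.65-fold (log2 fold change −1.40 ± 0.32 SE, edgeR adjusted p = 0.0349), and the call ended without mutant replicate 2 (adjusted p = 0.0722) or 3 (adjusted p = 0.0704). It also ended with total count scaling (−1.03, adjusted p = 0.0680) and with GC content and length offsets (−1.17, adjusted p = 0.0565). Of its 50-base words 52.6% are also in Ccdc85b on the opposite strand, and the forward-strand column held 0.445% to 2.03% of its stranded reads. Because the libraries keep strand, these reads are counted apart.

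Fosl2 encodes Fra-2, the other Fos-related antigen, and is on chromosome 5 from 32135801 to 32157842. It was at 1423, 1012, 795 and 994 CPM in mutants and at 1377, 1368 and 1527 CPM in controls. Mutant replicate 1 lay inside the control range and the other 3 mutants lay below it. The log2 fold change of −0.43 ± 0.24 SE did not pass (edgeR adjusted p = 0.264).

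Among the Jun family, Jun, the partner that all Fos proteins share, is on chromosome 4 from 95049034 to 95052222. It was at 1009, 496, 430 and 583 CPM in mutants and at 959, 824 and 775 CPM in controls. Mutant replicate 1 was above all controls and the other 3 mutants were below all of them. The log2 fold change was −0.44 ± 0.32 SE (edgeR adjusted p = 0.385), and −0.71 ± 0.19 SE (adjusted p = 0.0301) without mutant replicate 1.

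Junb, a Jun protein of weaker transactivation that restrains proliferation in several tissues, is on chromosome 8 from 84974484 to 84978718. It was at 501, 799, 553 and 467 CPM in mutants and at 1158, 1077 and 1304 CPM in controls. All mutants were below all controls, mutant replicate 2 being the nearest to them. Junb fell 2.03-fold (log2 fold change −1.02 ± 0.24 SE, edgeR adjusted p = 0.0366). The call ended without mutant replicate 3 (adjusted p = 0.0946) or 4 (adjusted p = 0.0793), and with offsets for GC content and length the log2 fold change was −0.63 (adjusted p = 0.155). The call of Junb also ended with total count scaling (−0.68) and without the filter on low counts (−1.06).

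Jund, the Jun member that many resting cells express steadily, is on chromosome 8 from 70698949 to 70700616. It was at 929, 501, 491 and 685 CPM in mutants and at 1194, 1308 and 1284 CPM in controls. All mutants were below all controls, with mutant replicate 1 the nearest, but the log2 fold change of −0.95 ± 0.27 SE did not pass (edgeR adjusted p = 0.0590). It passed with the DESeq2 Wald test (adjusted p = 0.0137), limma-voom (0.0414), unstranded counts (0.0453) and without mutant replicate 1 (0.00942). With GC content and length offsets the value was −0.35; Jund has 67.1% GC in its exons, the highest of the 10 genes. Its gene overlaps Gm11175 on the opposite strand over 48.3% of its words, and the unstranded column counted 32.3% to 37.5% of the reads of the reverse-stranded column, where reads over both genes count for neither.

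Atf3, a stress-induced leucine zipper protein that pairs with Jun proteins and can repress as a homodimer, is on chromosome 1 from 191170296 to 191218039. It was at 708, 583, 388 and 549 CPM in mutants and at 320, 392 and 314 CPM in controls. Only mutant replicate 3 lay within the control range, and the other 3 mutants were above it. The log2 fold change of 0.70 ± 0.24 SE did not pass (edgeR adjusted p = 0.0990), and with total count scaling it was 1.04 and passed (adjusted p = 0.0252).

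Egr1 is a zinc finger transcription factor outside AP-1 that growth factors induce through serum response factor, and lies on chromosome 18 from 34859823 to 34864984. It was at 280, 964, 327 and 252 CPM in mutants and at 798, 780 and 855 CPM in controls. Mutant replicate 2 was above every control and the other 3 mutants were far below the lowest control. The log2 fold change was −0.83 ± 0.48 SE (edgeR adjusted p = 0.282), and −1.49 ± 0.20 SE (adjusted p = 0.0181) without mutant replicate 2.

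Ier3, also called IEX-1, encodes a small protein that modulates apoptosis and survival signalling, and is on chromosome 17 from 35821684 to 35822923. It was at 588, 1457, 762 and 419 CPM in mutants and at 2626, 2442 and 2725 CPM in controls. All mutants were below all controls, again with mutant replicate 2 the highest of the mutants. Ier3 fell 3.22-fold, the largest change of the 10 (log2 fold change −1.69 ± 0.42 SE, edgeR adjusted p = 0.0421). The call ended without mutant replicate 3 (adjusted p = 0.103) or 4 (adjusted p = 0.0697), and no 50-base word of Ier3 is shared with another gene.

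**Figure D2:**
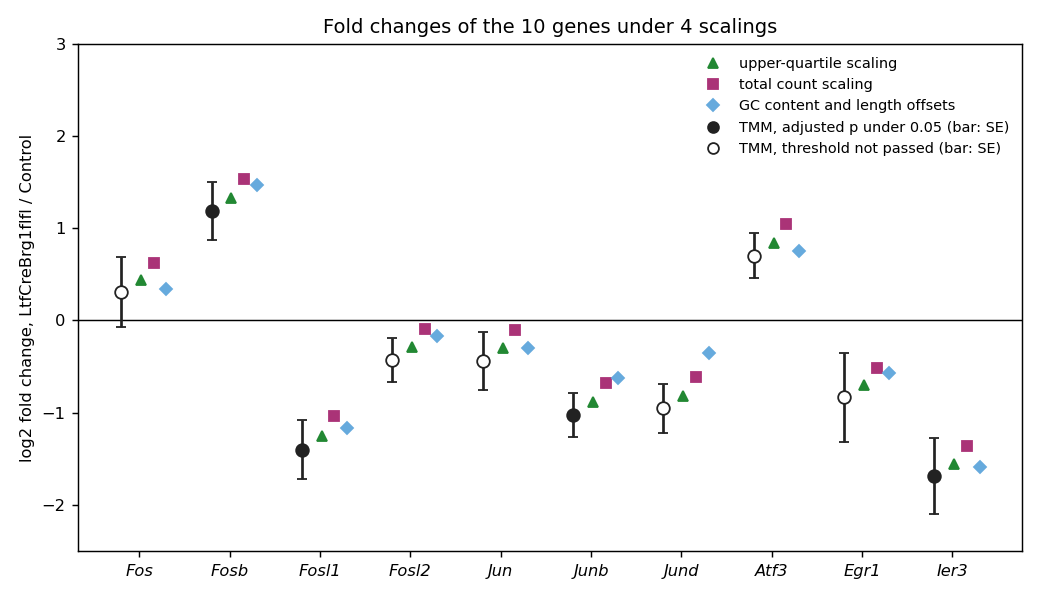
Log2 fold change of each gene, mutants against controls, with TMM scaling (circle with its SE, filled where the edgeR adjusted p was under 0.05) and, beside it, with upper-quartile scaling, total count scaling and offsets for GC content and length. No gene changes sign between these scalings, Fosb, Fos and Atf3 stay above 0, and Jund moves from −0.95 to −0.35 with the offsets.

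Counting error was small beside the spread between libraries. The lowest count among the 10 genes, Fosl1 in mutant replicate 3, has a Poisson error of 3.34%, while the SD of log2 CPM among mutants ran from 0.34 (Junb) to 0.89 (Egr1). Among controls it ran from 0.07 (Egr1 and Jund) to 0.41 (Fosl1). The median SD over all tested genes of at least 100 CPM was 0.40 in mutants and 0.17 in controls, so the mutants also spread more over the tested genes at large. The mutants were single mice and the controls pools, and the part of pooling in this was not tested.

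The profiles of the genes over the libraries differed. Fosl2 and Jun had the most alike profiles of the 45 pairs, with a root mean square difference of 0.19 in centred log2 CPM over the 7 libraries, followed by Jun and Jund at 0.29. Fosb and Ier3 were the least alike at 1.51, and Fosb and Fosl1 differed by 1.42. Among all 10689 other genes of at least 5 CPM, the closest to Fosb was Pomk at 0.09, the closest to Jun was Ppard at 0.07 and the closest to Atf3 was Trappc12 at 0.08. Ier3 was closest to Hes1 at 0.18, then Krt7 at 0.21 and Sphk1 at 0.26, and Fos to Nfya at 0.16. For no gene of the 10 was another of the 10 among the 3 closest. These are descriptions over 7 libraries that share the genotype difference.

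Levels can be compared between genes only per length, as CPM per kilobase of merged exon (RPKM). The merged length takes in the exons of every annotated transcript of a gene (6243 bases for Fosb). Which transcripts these cells use was not determined, so orders and shares by RPKM depend on that length. In controls Ier3 was the highest at a mean of 2297 RPKM, followed by Jund at 757, Junb at 513, Fos at 385 and Jun at 267. Egr1 (181), Fosb (166), Atf3 (159), Fosl2 (147) and Fosl1 (128) came next, and neighbours among these last 5 overlapped in range, as did Junb with Fos and Fos with Jun. In mutants the order of mean RPKM was Ier3 (713), Fos (476), Jund (391), Fosb (378), Atf3 (259), Junb (252), Jun (197), Fosl2 (109), Egr1 (102) and Fosl1 (48.3), and the ranges of all 9 neighbouring pairs overlapped. By this measure Ier3 ranked 11 to 14 among all genes of a control library and 16 to 63 in mutants. The 10 genes together took 1.16% of the gene reads in mutant replicate 2, 0.825% to 0.840% in the other mutants and 0.932%, 0.938% and 0.913% in controls. Mutant replicate 2 was above all controls and the other 3 mutants were below them.

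Within the Fos family the makeup differed. Fosb made up 27.2%, 36.0%, 45.0% and 42.4% of the summed RPKM of the 4 Fos genes in mutants and 19.8%, 20.4% and 19.99% in controls. Fosl1 made up 6.25%, 2.63%, 3.39% and 8.81% in mutants and 17.3%, 10.2% and 19.7% in controls. Neither share overlapped between the groups, and both use the counts of genes whose change is already given. Fos itself took 45.6% ± 8.1 in mutants (SD, n = 4) and 46.3% ± 6.9 in controls (SD, n = 3), with overlap.

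The ratio of Fosb to Fosl1 per length was 4.35, 13.7, 13.3 and 4.81 in mutants and 1.14, 2.01 and 1.02 in controls. Such ratios within a library do not depend on how libraries are scaled. Offsets for GC content and length differ between genes and were not applied to the ratios given here and below. With these offsets the log2 fold changes of Jun and Jund were −0.30 and −0.35, against −0.44 and −0.95 without them. That of Junb moved from −1.02 to −0.63, so ratios that hold Jund or Junb may depend on them. Summed over each family, the Fos genes stood at 0.793, 1.84, 1.36 and 0.990 of the Jun genes in mutants and at 0.551, 0.584 and 0.479 in controls, without overlap. The Fos sum was 789 to 1481 RPKM in mutants and 757 to 882 in controls, which overlap, while the Jun sum was 669 to 1091 RPKM in mutants and 1510 to 1580 in controls, which do not. With the unstranded column, where Jund loses most of its reads, the mean ratio was 1.84 in mutants and 0.807 in controls, against 1.25 and 0.538 in the reverse-stranded column.

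**Figure D3:**
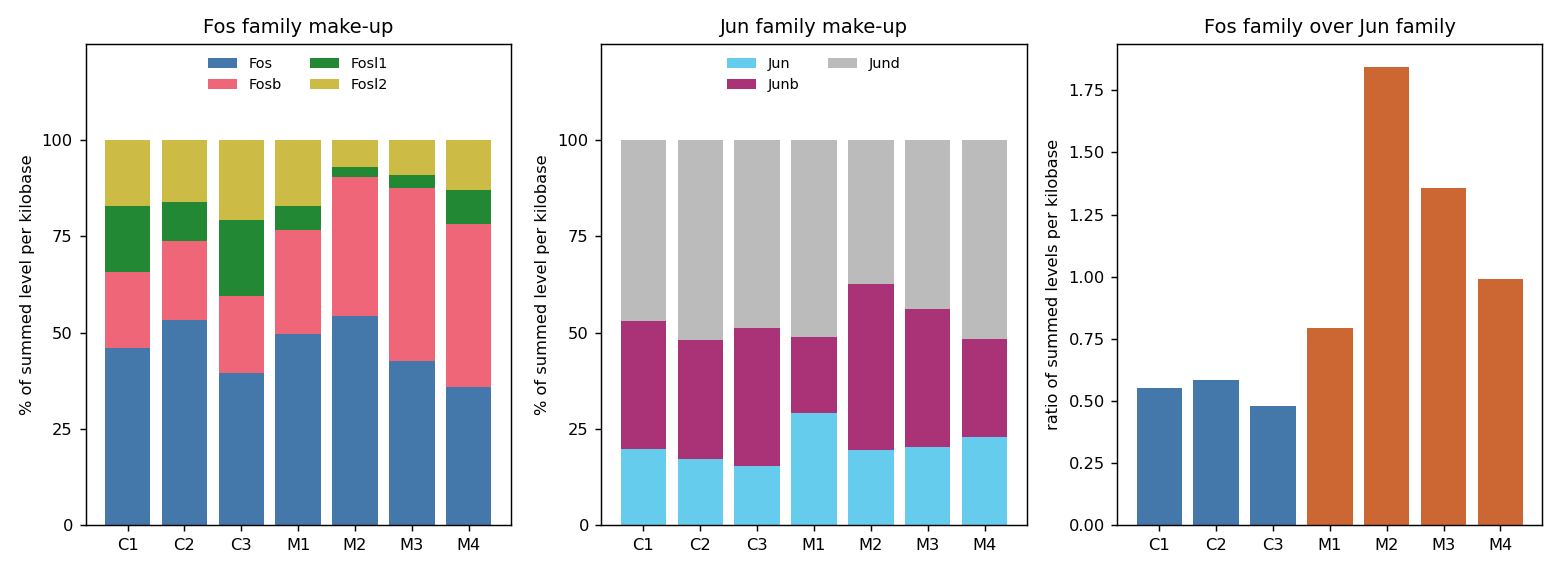
Share of each gene in the summed RPKM of the Fos family and of the Jun family in % (stacked bars) and the ratio of the 2 sums (bars from 0), 1 bar a library, with C1 to C3 the Control and M1 to M4 the mutant replicates. Fosb takes 27.2% to 45.0% of the Fos family in mutants against 19.8% to 20.4% in controls, Fosl1 2.63% to 8.81% against 10.2% to 19.7%, and the ratio is 0.793 to 1.84 against 0.479 to 0.584.

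Inside the Jun family the shares overlapped. Jund held 46.0% ± 6.7 of the summed RPKM in mutants (SD, n = 4) and 49.3% ± 2.4 in controls (SD, n = 3), and Junb 31.1% ± 10.4 and 33.3% ± 2.4. Across families, Fosb to Junb was 1.08, 1.54, 1.70 and 1.65 in mutants and 0.329, 0.386 and 0.267 in controls. Atf3 to Ier3, the pair of stress genes, was 0.632, 0.210, 0.267 and 0.688 in mutants and 0.0640, 0.0843 and 0.0605 in controls. Fos to Egr1, both targets of serum response factor, was 6.87, 3.74, 5.32 and 5.03 in mutants and 2.16, 2.71 and 1.57 in controls. Of the 9 ratios computed, chosen with earlier results of these data known, 6 did not overlap between the groups, namely Fosb to Fosl1, these 3, Fosb to Fos (0.549 to 1.19 in mutants, 0.383 to 0.506 in controls) and Jun to Jund (0.445 to 0.568 and 0.316 to 0.420). The other 3, Fos to Fosl2, Jun to Junb and Fos to Jun, overlapped. Fos to Jun, for example, was 1.36 to 5.17 in mutants and 1.23 to 1.82 in controls. Fosb to Fosl1 and Fosb to Junb had to separate, since Fosb was higher and Fosl1 and Junb were lower in every mutant. Ier3, too, was lower in every mutant. The share of separated ratios over gene pairs at large was not computed, so the count of 6 is a description only.

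In the authors' deposited table, made with DESeq2, Fosb was higher (log2 fold change 1.20, adjusted p = 0.00140) and Fosl1 (−1.39), Junb (−1.01), Jund (−0.94) and Ier3 (−1.67) were lower. The authors' deposited table gives Jund an adjusted p of 0.0143 and the other 5 genes adjusted p from 0.121 (Atf3) to 0.619 (Fos). It compares the same 2 groups and is not independent evidence, and the share of all genes passing in it was not computed. By the DESeq2 Wald test run here 17.7% of all genes passed, against 11.5% by edgeR.

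Further genes of the same pathways were described from lists. Of 14 other AP-1 and partner leucine zipper genes tested, 0 rose and 1 fell, Creb5 (10.3 ± 2.84 CPM in 4 mutants, 28.9 ± 11.5 CPM in 3 controls, log2 fold change −1.49), with a median of −0.36 over the list. Over all tested genes 5.37% rose and 6.18% fell by edgeR. By the DESeq2 Wald test 0 rose and 3 fell of 16 tested, where 17.7% of all genes passed. At an unadjusted edgeR p under 0.05 there were 3 of 14 in either direction, against 31.0% of all genes, and without mutant replicate 1, 3 of 14 fell, against 14.0% of all. The fall of Creb5 was not called with total count scaling, with GC content and length offsets or without any one of the other 6 libraries. Of 19 upstream regulators, 0 rose and 2 fell by edgeR and by DESeq2, 5 had an unadjusted edgeR p under 0.05, 4 fell without mutant replicate 1 and 0 fell without any one of the controls. Over all genes only 84 to 112 fell without a control. The 2 called by edgeR, a share like that of all tested genes, were Map2k4, a kinase that activates JNK (−1.39 ± 0.22 SE, edgeR adjusted p = 0.0142), and Mrtfa, a coactivator of serum response factor (−1.17 ± 0.18 SE, edgeR adjusted p = 0.0124). The median of the upstream list was −0.29, and 0.07 with total count scaling.

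Of 48 other immediate early genes, 10 fell and 0 rose by edgeR, where 6.18% of all genes fell and 5.37% rose. At an unadjusted edgeR p under 0.05 there were 22, against 31.0% of all genes. By DESeq2 13 fell and 4 rose, where 8.73% of all genes fell and 8.92% rose. Leaving out mutant replicate 2, 3 or 4 gave 10, 3 and 6 falls. Over all genes these removals gave 617 falls of 14958 tested, 374 of 14933 and 556 of 14824, against 903 of 14610 with all libraries. The largest falls were those of Cebpb, a leucine zipper factor of epithelial differentiation (46.3 ± 7.47 CPM in mutants, 324 ± 65.97 in controls, log2 fold change −2.81), Cebpd (−1.99) and Ier5 (−1.97). The other 7 were Sgk1, Ppp1r15a, Dusp5, Ccn1, Nfkbia, Gadd45b and Myc, from −1.56 to −0.94. The median of the list was −0.43. The direction of part of this list turned on the scaling and the libraries. With total count scaling 6 rose and 6 fell (15.1% and 3.64% of all genes), and those that rose were Egr2, Egr4, Nr4a2, Btg2, Zfp36l1 and Plk3. Without mutant replicate 1, 4 rose and 17 fell, where 15.5% of all genes rose and 14.0% fell. In the main test Egr2, a paralogue of Egr1, was at 99.7 ± 53.3 CPM in mutants and 38.7 ± 2.73 in controls (log2 fold change 1.36, edgeR adjusted p = 0.0571), and Nr4a2, an orphan nuclear receptor, had a log2 fold change of 1.63 (adjusted p = 0.0853); both passed with DESeq2.

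Of 28 tested genes known as AP-1 targets, 7 fell and 0 rose by edgeR, with a median of −1.03; 14 had an unadjusted edgeR p under 0.05, and 11 fell and 0 rose by DESeq2. Over all genes 6.18% fell and 5.37% rose by edgeR, and 31.0% had an unadjusted edgeR p under 0.05. By DESeq2 8.73% of all genes fell and 8.92% rose. Ereg, an EGF receptor ligand, was at 0.699 ± 0.355 CPM in mutants and 6.73 ± 1.92 in controls (log2 fold change −3.25 ± 0.53 SE, edgeR adjusted p = 0.0145). Plau, the urokinase plasminogen activator, was at 107 ± 52.0 and 832 ± 288 CPM (−2.95 ± 0.51 SE, edgeR adjusted p = 0.0172), and the collagenase Mmp13 at 0.906 ± 0.571 and 6.95 ± 1.09 CPM (−2.93 ± 0.50 SE, edgeR adjusted p = 0.0169). In mutant replicate 3 Ereg was at 0.210 CPM, the floor of that library, and it reached at most 1.04 CPM in a mutant. Mmp13 was at 0.469 to 1.69 CPM in mutants. Both genes are near the floor there, so the sizes of their fold changes are uncertain. The other 4 were Cxcl2, Vegfa, Sphk1 and Hmox1, from −2.396 to −1.54. With total count scaling 6 fell, against 3.64% of all genes. Without mutant replicate 1, 13 of 29 tested fell and Ccnd1 rose, where 14.0% of all genes fell and 15.5% rose. Without mutant replicate 2, 3 or 4 there were 8, 4 and 6 falls of 29 tested, where 617 of 14958, 374 of 14933 and 556 of 14824 genes fell. Without control replicate 1, 2 or 3 the falls among these targets numbered 0, 1 and 1, and those among the other immediate early genes 1, 2 and 2. Over all genes these removals left 84 falls of 15144 tested, 112 of 15190 and 92 of 15195.

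Heat shock genes, which warm digestion induces, did not move one way. Of 15 tested, Hspe1 (98.2 ± 31.7 CPM in mutants, 32.8 ± 3.97 in controls, log2 fold change 1.58) and Dnaja1 (322 ± 48.9 and 116 ± 27.4 CPM, 1.48) rose, and Hspa5, a chaperone of the endoplasmic reticulum, fell (1633 ± 256 and 4505 ± 1223 CPM, −1.46). The values of Hspe1 and Dnaja1 are uncertain, since 18.4% and 11.9% of their 50-base words are shared in sense with other genes. Hspa1a and Hspa1b, the inducible Hsp70 genes, had log2 fold changes of −0.18 (edgeR adjusted p = 0.801) and −0.07 (adjusted p = 0.946), values that are uncertain too, with 60.4% and 62.3% of their words shared in sense, chiefly with each other. The median of the list was 0.05, and over all genes 5.37% rose and 6.18% fell. Mitochondrial genes took 2.19% to 2.75% of gene reads in mutants and 1.44% to 1.87% in controls, and 19914 to 21385 and 22865 to 23063 genes had a read, at unequal depth. The part of dissociation and of RNA quality in the values of the 10 genes was not tested.

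**Figure D4:**
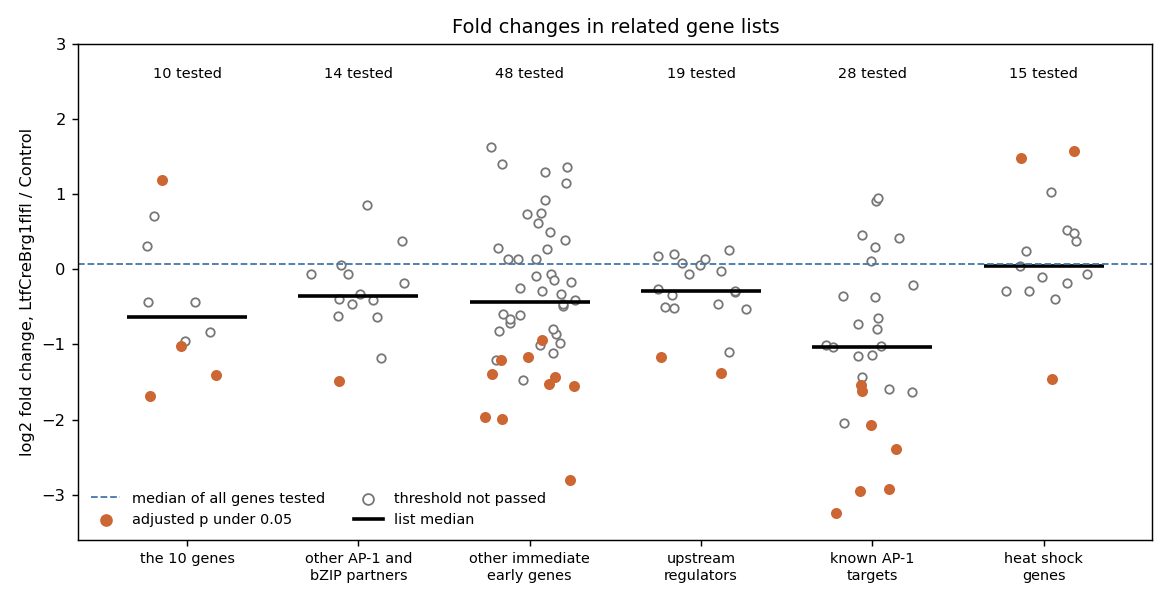
Log2 fold change of every tested gene in the 10-gene set and in 5 further lists, 1 point a gene, with called genes in colour and the median of each list as a line; the dashed line is the median of all tested genes (0.06). The medians lie at −0.64 (10 genes), −0.36 (other AP-1 genes), −0.43 (other immediate early genes), −0.29 (upstream regulators), −1.03 (AP-1 targets) and 0.05 (heat shock).

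Markers of the cell types that the bead-purified cells could hold were measured in the same libraries. Of 10 epithelial markers Krt8 (−1.02) and Cdh1 (−0.91) fell, Krt8 being uncertain with 26.9% of its words shared in sense, chiefly with Krt8-ps. Of 12 stromal fibroblast markers Dcn (−1.77) and Vim (−0.73) fell. Over the alternatives, a replicate term included, the call of Krt8 was kept in 7 and lost in 11. For Cdh1 and for Vim it was kept in 9 and lost in 9, and for Dcn kept in 15 and lost in 3. With total count scaling 0 of the 10 epithelial markers fell, where 3.64% of all genes fell, and their median was −0.40. By DESeq2 4 epithelial and 3 stromal markers fell. Over all genes 6.18% fell and 5.37% rose by edgeR, and 8.73% fell by DESeq2. The median was −0.76 for epithelial markers, all 10 below 0, −0.78 for stromal, −0.77 for endothelial and −1.08 for mesothelial markers. It was −0.51 for smooth muscle and pericyte and 0.11 for immune markers, against −0.64 over the 10 immediate early genes. The stromal sum was 238 to 553 CPM in mutants against 659 to 830 in controls, with Hand2 at 0 in 1 mutant. The immune sum was 478 to 728 CPM in mutants and 537 to 722 in controls, with 0 of 11 markers passing (edgeR; 1 at an unadjusted p under 0.05, 1 by DESeq2), the most abundant being Cd74 (0.46), and with Cd3e or Ncr1 at 0 in 2 mutants. Smooth muscle and pericyte markers summed to 29.8 to 100.3 CPM in mutants and 78.4 to 119 in controls, with Notch3 higher (0.997) and Rgs5 or Actg2 at 0 in 3 mutants. The call of Notch3 was kept in 9 of the alternatives and lost in 9. Endothelial markers summed to 5.75 to 26.7 and 23.9 to 30.8 CPM, with Cldn5 at 0 in 1 mutant and Pecam1 at −0.82, and mesothelial markers to 10.1 to 42.2 and 43.6 to 59.8 CPM, with Upk3b at −1.21. None of the endothelial and mesothelial markers passed the edgeR test (1 and 2 at an unadjusted p under 0.05, and 1 each by DESeq2). At that unadjusted edgeR p there were 4 of 10 epithelial, 4 of 12 stromal and 3 of 8 smooth muscle and pericyte markers. Of all tested genes 31.0% reached it. The part of these cells in the values of the 10 genes was not tested.

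**Figure D5:**
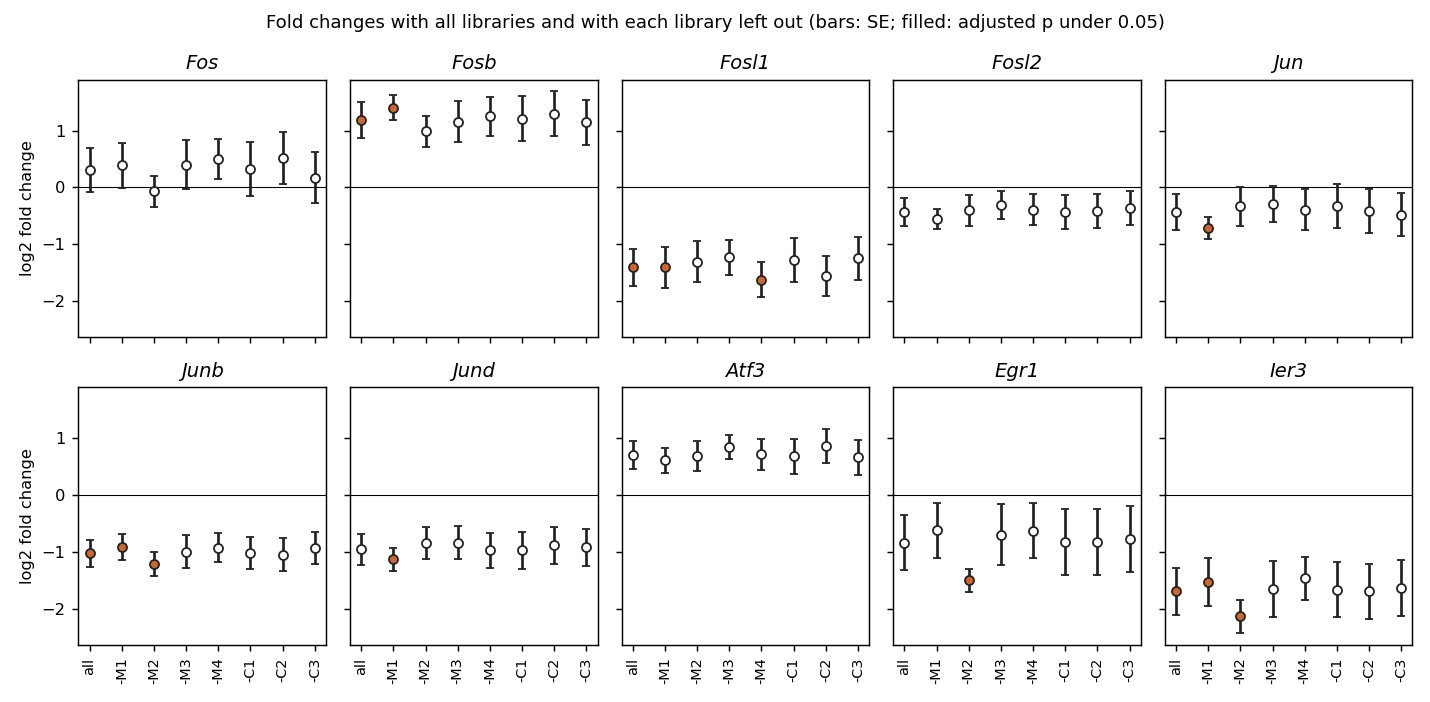
Log2 fold change of each of the 10 genes with all libraries and with each library left out in turn (M1 to M4 mutant, C1 to C3 Control replicates), with its SE, filled where the edgeR adjusted p was under 0.05. Fosb, Fosl1, Junb and Ier3 keep their direction in all 7 removals but lose the call in each of the 3 that leave out a control, and Fos changes sign without mutant replicate 2.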

How the data were processed

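RNA-seq libraries of EPCAM-positive endometrial epithelial cells were grouped by the genotype in the labels, 4 mutant and 3 Control. The authors deposited, for each library, a STAR table of whole-number counts of reads per gene, not normalized, in 3 columns, for unstranded, forward-strand and reverse-strand counting. The submitters' processing notes name cutadapt, Trim Galore and FastQC, the aligner STAR with the build mm10, and DESeq2. Tool versions and read length are not given in the sources. Per the labels' protocols the mRNA libraries were directional, from a KAPA kit. The authors also deposited a table of their comparison with log2 fold changes, their errors and p-values, from which the rows of the 10 genes were copied. The mean signal and the test and weight scores deposited by the authors in that table were not used.

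Reverse-stranded counts (column 4) were used, which held 94.8% to 95.6% of both stranded columns. Library sizes and tests left out reads assigned to no gene, which were unmapped 3.90% to 6.70%, multimapping 8.45% to 11.2%, without a gene 10.5% to 14.7% and ambiguous 0.827% to 1.29% of the reads of a library. Symbols and coordinates came from GENCODE M21 (GRCm38), which matched 53274 of 53379 gene IDs. CPM are per 1000000 reads of the TMM-scaled library, and RPKM divide CPM by the length of merged exons. Genes kept by filterByExpr were tested in R 4.3.3 with the two-sided quasi-likelihood F test of edgeR 4.0.16, genotype as the only term, adjusted after Benjamini and Hochberg over 14610 genes. Alternatives were other scalings, filters, the unstranded column, offsets for GC content and length, a replicate term, leaving out each library, limma-voom (limma 3.58.1) and DESeq2 1.42.0. Replicates differed by more than sampling noise in every pair (lowest chi-square per degree of freedom 61.1). The mutants were separate mice, and the sources do not say whether control pools shared mice, so p-values measure only the spread between these mice and pools. The SE of a fold change and the SD of a group include the spread between libraries, while the Poisson errors and the floors cover counting error only.

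The 10 genes, the other lists and the tests were chosen with earlier results of these data known. Named were the 10 genes, up to 3 called genes of each list with the greatest absolute fold change (mean at least 1 CPM; the most abundant gene where none passed), and the 3 closest profiles of each of the 10. Other called genes of the pathway lists, and Egr2, Egr4, Nr4a2, Btg2, Zfp36l1, Plk3, Ccnd1, Hspa1a and Hspa1b, were named after their values were seen. In 3 sets of simulated counts for this comparison (14610 genes, 200 of them changed), the test found 1.04% of changes of 2-fold, 32.0% of those of 4-fold and 70.9% of those of 8-fold, and made 2.33 false calls on average, so genes that did not pass may still differ. The setting differs from the data, where 1687 genes were called. With fewer changed genes the adjustment of p is stricter, so these shares may understate the recovery in the data.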

Additional observations from a re-analysis of the deposited data

Results flagged for a closer look

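Of 31 results checked for a library apart from the others of its group, 2 were marked by Dixon's test in the mutants, and chance marks about 1 in 20 groups. Egr1 was at 964 CPM in mutant replicate 2 against 252 to 327 CPM in the other 3 mutants, a gap of 0.895 of the range of the group. Vim, a stromal marker, was at 87.9 CPM in mutant replicate 2 against 68.8 to 70.1 CPM in the others, a gap of 0.931 of the range.

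Reads on the strand opposite to Atf3, in the forward-strand column that no comparison used, made up 1.14%, 0.653%, 0.807% and 1.25% of its stranded reads in mutant replicates 1 to 4 and 0.606%, 0.497% and 0.591% in the controls. The lowest mutant, at 0.653%, was above the highest control. This was looked at in each of the 10 genes, and the transcripts of Atf3 share no 50-base word with another annotated gene on either strand.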

How the results depend on the processing

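All genes: the 784 higher and 903 lower became 1178 higher with upper-quartile scaling, 2202 and 532 with total count scaling, 1664 and 1629 with DESeq2, and 355 higher without the low-count filter. Leaving out 1 library gave 45 to 2314 higher and 84 to 2089 lower. The median log2 fold change of all genes moved from 0.06 to 0.20 (upper-quartile) and 0.41 (total count), and the share of calls that were higher from 46.5% to 62.6% and 80.5%, and to 33.6% without the filter. Of the 10 genes, 1 higher and 3 lower became 2 and 1 with total count scaling, 0 higher without the filter, 1 lower with GC content and length offsets, and 0 to 1 higher and 0 to 5 lower without 1 library; the cause was not tested, but leaving out a library also leaves fewer samples. Fosb, Fosl1, Junb and Ier3 kept their direction in all alternatives and their call in 10, 10, 9 and 12 of the 17 without a replicate term. Fos, at 0.31, ranged from −0.064 (without mutant replicate 2) to 0.52 when 1 library was left out.

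With the replicate number as a block, 2 genes were higher and 0 lower, and 0 and 0 of the 10 genes. The numbers did not pair the samples: same-numbered deviations correlated at −0.02, −0.39 and 0.20, and not every sample correlated best with its own number. Depth added a counting error of at most 3.34% to a value of the 10 genes in 1 library.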
